A study of Arabidopsis thaliana with 128 samples.

Results

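Cordycepin is an adenosine analog that ends growing RNA chains, so in Arabidopsis seedlings soaked in it most transcripts are expected to be lost with time. The genes described here went the other way at first: they are the 150 nuclear genes whose RPM rose most between 0 and 15 min in WT, RPM being the reads of a gene scaled to the same total of reads in genes for every library. They were drawn from 12066 genes, of 28775 in the table, that averaged 5 RPM or more over the 4 WT libraries at 0 min, leaving out 2 genes for 18S ribosomal RNA. They were chosen by the ratio of the 15 min mean to the 0 min mean in WT, so that ratio is given only as a description. It ran from 1.25 to 2.43 with a median of 1.33, against a median of 0.979 over all eligible genes. Only 3 genes reached a ratio of 2 and 28 reached 1.5. At the border, CYP705A1 at rank 150 had a ratio of 1.25008 and AT3G28270 at rank 151 had 1.24957, so membership near the end of the list rests on very small differences. In 53 of the 150 genes all 4 WT libraries at 15 min lay above all 4 at 0 min, beside 1.69% of the eligible genes. The choice used these libraries, so nothing is read from that count.

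The study followed RNA from whole seedlings grown for 5 days in constant light and infiltrated under vacuum with 1 mM cordycepin. RNA was taken at 0, 7.5, 15 and 30 min, and again after 60, 120, 240 and 480 min, from 4 genotypes with 4 replicate pools of seedlings per genotype and time. Libraries were made after removal of ribosomal RNA. WT was Col-0 carrying an added SOV gene from the L.er accession, sov was plain Col-0, whose own SOV allele is not functional, vcs was the vcs-7 mutant with the added L.er SOV gene, and vcs sov was vcs-7 without it. The promoter of the added gene is not given in the sources used here. VCS, or VARICOSE, is the scaffold of the complex that removes mRNA caps, and SOV is an exoribonuclease of the cytoplasm that works inward from the 3′ end of RNA. All libraries after 0 min came from seedlings treated with cordycepin, so effects of the infiltration itself and of cordycepin cannot be told apart here. In libraries of whole seedlings, fewer cells of a type and less RNA per cell also cannot be told apart.

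Libraries held 11.5 M to 37.3 M reads in genes (M for mega), with a median of 21.7 M. Levels below are nuclear RPM, meaning RPM counted over the reads of nuclear genes alone, because chloroplast and mitochondrial reads took a different share in each genotype. VCS RNA lay between 120 and 262 nuclear RPM in the libraries of WT and sov and between 1.39 and 13.8 in those of vcs and vcs sov. SOV RNA lay between 13.1 and 48.9 in sov, below the 73.4 to 274 of WT, and between 93.9 and 274 in vcs sov, which overlaps the 211 to 901 of vcs. RNA of leaf (RBCS1A), root hair (COBL9) and phloem (SUC2) genes was present at 0 min in every library, and the pollen gene VGD1 did not exceed 0.0633 nuclear RPM. The replicate 1 libraries of vcs stood apart: the 150 genes made up 0.883% of their nuclear reads at 0 min, 1.36% at 7.5 min and 1.31% at 30 min, and at all 8 times more than in any other vcs library of that time.

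RPM is a relative unit. A transcript that decays more slowly than the average gains RPM without being made, and the same is true of nuclear RPM. In the authors' deposited table, where group means were scaled by the authors and stand at 1 at 0 min, all 150 genes stood above 1 in WT at 15 min, which repeats the choice. For sov, 139 of the 150 stood above 1 in the authors' deposited table at 15 min, beside 20.7% of the 18470 nuclear genes listed there. In vcs the authors' deposited table gave 124 of 150 above 1, beside 28.6% of genes. For vcs sov the authors' deposited table gave 102 of 150, beside 30.2%.

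**Figure D1:**
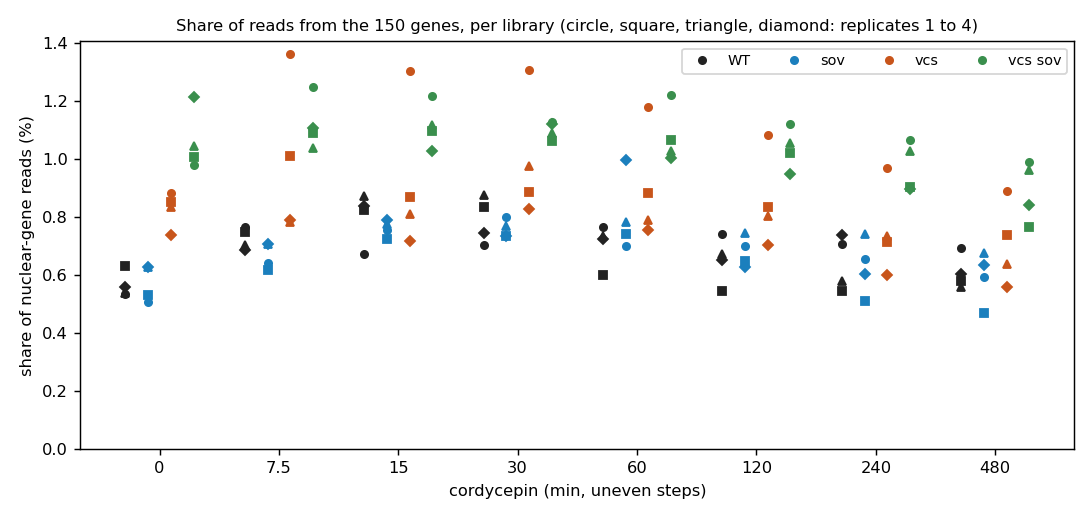
The share of nuclear-gene reads taken by the 150 genes (y axis, percent, from 0) in each library at each time of cordycepin treatment (x axis, min, uneven steps), coloured by genotype and with a symbol for each replicate. WT libraries lie at 0.535% to 0.632% at 0 min and at 0.673% to 0.873% at 15 min, and the vcs replicate 1 libraries (orange circles) stand above the other vcs libraries.

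The top of the list was taken by a pair of related genes. AT1G66500, on chromosome 1 at 24811080 to 24812661 (minus strand) in the RefSeq annotation of TAIR10.1, and AT5G43620, on chromosome 5 at 17522486 to 17524003 (plus strand), are both annotated as pre-mRNA cleavage complex II proteins. In yeast and animals, proteins of that complex act where a new transcript is cut and given its poly(A) tail. Each gene is a single exon. Their sequences were identical in 87.4% of aligned bases and shared 73 stretches of 50 bases, 4.76% of those in AT1G66500, so a small part of their reads could be split between them. The 250 bases before each annotated start, read from TAIR10.1, are shown because the closest 75-base windows of both promoters matched at 72 positions, and because both hold a CGCG box (CGCGTT, here as AACGCG on the other strand, in capitals), a sequence known in Arabidopsis promoters that respond rapidly to stress. Other searched sequences are not marked: both promoters also hold CCGAC and TATAAA, and that of AT1G66500 holds CACGTG with the ACGTG inside it.
AT1G66500 (chr1:24812662-24812911, minus strand): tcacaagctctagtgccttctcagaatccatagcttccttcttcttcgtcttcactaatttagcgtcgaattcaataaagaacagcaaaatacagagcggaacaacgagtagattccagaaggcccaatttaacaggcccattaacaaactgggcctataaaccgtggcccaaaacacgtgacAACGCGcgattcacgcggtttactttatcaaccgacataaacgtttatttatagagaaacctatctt
AT5G43620 (chr5:17522236-17522485, plus strand): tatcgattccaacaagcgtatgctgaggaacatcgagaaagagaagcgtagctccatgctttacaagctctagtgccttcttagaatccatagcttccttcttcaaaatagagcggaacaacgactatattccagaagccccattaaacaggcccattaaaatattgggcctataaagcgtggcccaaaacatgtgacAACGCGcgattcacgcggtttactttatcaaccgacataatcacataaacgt

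CGCGTT, searched on both strands, was found in the promoters of 11 of the 144 protein-coding members, 7.64%, and in 2.99% of the 12010 promoters of the same length of eligible protein-coding genes. The pair is among the 11, and its hits lie in the matching windows, so they are not independent of each other. Besides the pair, the 11 include SUS6, a sucrose synthase, AT4G03230, a receptor-like kinase, and AT5G25440, a protein kinase. The other motifs searched had these shares: the W-box core TTGAC in 49.3% of members and 44.8% of all promoters, the G-box CACGTG in 7.64% and 7.43%, the ABRE core ACGTG, which overlaps the G-box, in 34 of 144 members and 23.1% of all promoters, TGACG in 25% and 19.2%, the heat shock core GAANNTTC in 6.25% and 9.29%, GCCGCC in 0.694% and 1.92%, the telo box AAACCCTA in 2.08% and 3.5%, and TATAAA in 40.3% and 45.8%.

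AT1G66500 rose in each of the 3 genotypes that the choice had not used. In sov its level was 24.8, 21.7, 17.5 and 18.21 nuclear RPM in the 4 libraries at 0 min and 62.7, 44.1, 50.8 and 56.1 at 15 min. The vcs libraries held 19.8, 14.5, 15.6 and 17.5 at 0 min and 43.2, 44.6, 38.7 and 46.2 at 15 min. In vcs sov the values were 19.9, 23.599, 24.0 and 29.0 at 0 min and 37.8, 41.3, 46.2 and 55.4 at 15 min. Every 15 min library of AT1G66500 lay above every 0 min library of its genotype. The log2 changes were 1.36 ± 0.16 (SE) for sov, 1.34 ± 0.16 for vcs and 0.89 ± 0.16 for vcs sov, with limma adjusted p of 1.57e-10, 6.12e-10 and 0.000229 over all genes tested.

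AT5G43620 did the same. Its mean level went from 17.59 ± 3.6 to 54.4 ± 9.8 nuclear RPM (SD, n = 4) in sov, from 13.7 ± 2.4 to 36.2 ± 6.7 in vcs, and from 19.3 ± 3.1 to 37.3 ± 2.7 in vcs sov. The groups at 0 and 15 min did not overlap in any of the 3 genotypes. AT5G43620 had limma log2 changes of 1.60 ± 0.17, 1.37 ± 0.17 and 0.94 ± 0.17 (SE), adjusted p of 2.05e-12, 2.69e-09 and 0.000256. AT1G66500 and AT5G43620 passed the test in all 3 genotypes under the main settings and under every alternative setting run, and no other member passed in all 3.

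The later course of the pair was a peak and then a loss. In WT the mean of AT1G66500 was 24.8 ± 4.0 nuclear RPM at 0 min, 61.4 ± 7.8 at 15 min and 67.5 ± 6.0 at 30 min, then 26.7 ± 3.9 at 120 min and 10.2 ± 1.8 at 480 min (SD, n = 4). From 30 to 120 min AT1G66500 fell by 1.33 ± 0.16 on the log2 scale in WT (limma adjusted p = 3.98e-11) and by 1.44 ± 0.16 in sov (adjusted p = 1.18e-12). In the genotypes with vcs-7 the fall was smaller: log2 changes were -0.56 ± 0.16 in vcs (adjusted p = 0.00346) and -0.41 ± 0.16 in vcs sov (adjusted p = 0.0583, which does not pass, and 0.0472 with the replicate number as a block, which does). The difference itself passed the test for AT1G66500 between vcs and WT (0.77 ± 0.23, adjusted p = 0.0275) and between vcs sov and sov (1.04 ± 0.23, adjusted p = 0.000683). For AT5G43620 the vcs sov to sov difference passed (0.85 ± 0.25, adjusted p = 0.0111) and the vcs to WT difference did not (0.57 ± 0.25, adjusted p = 0.173). The vcs to WT difference of AT1G66500 did not pass without replicate 2, 3 or 4, nor the vcs sov to sov difference of AT5G43620 without replicate 3 or 4 or with each library centred on its median gene. The fall of AT1G66500 in vcs did not pass with centring or with edgeR. In the authors' deposited table AT1G66500 stood at 0.218 of its start in WT at 480 min and at 0.697 in vcs sov.

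The third gene, AT3G41761, is annotated as a non-coding RNA of 162 bases on chromosome 3 at 14195917 to 14196078 (plus strand). It ends 1598 bases before AT3G41768, a gene for 18S ribosomal RNA on the same strand. It is shown whole, as read from TAIR10.1, with no part in capitals.
AT3G41761: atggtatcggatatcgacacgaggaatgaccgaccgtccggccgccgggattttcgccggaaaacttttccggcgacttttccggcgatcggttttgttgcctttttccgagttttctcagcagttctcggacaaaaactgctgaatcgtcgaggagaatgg
In sov the libraries of AT3G41761 held 22.8, 30.8, 29.8 and 24.5 nuclear RPM at 0 min and 50.1, 58.0, 57.0 and 47.3 at 15 min, with no overlap. The vcs sov libraries held 22.2, 24.0, 17.9 and 10.8 at 0 min and 41.9, 35.9, 34.3 and 41.4 at 15 min, again with no overlap. AT3G41761 rose in both, by a log2 change of 0.97 ± 0.24 (SE, limma adjusted p = 0.00644) and 1.07 ± 0.24 (adjusted p = 0.00943). In vcs the change was 0.69 ± 0.24 and did not pass (adjusted p = 0.278). Without replicate 3 neither rise of AT3G41761 passed, and without replicate 4 the one in vcs sov did not. From 30 to 120 min AT3G41761 fell in all 4 genotypes, by 0.95 to 1.04 on the log2 scale (adjusted p of 0.000221, 0.00057, 0.000876 and 0.00173 for WT, sov, vcs and vcs sov), and with centring the falls in sov and vcs did not pass. The 18S ribosomal RNA genes AT3G41768 and AT2G01010, left out of the list, had WT ratios at 15 min of 1.93 and 1.97, and the part of ribosomal RNA left in the libraries in the change of AT3G41761 was not tested. These 2 genes took from 0.00867% to 1.39% of the nuclear reads of a library.

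**Figure D2:**
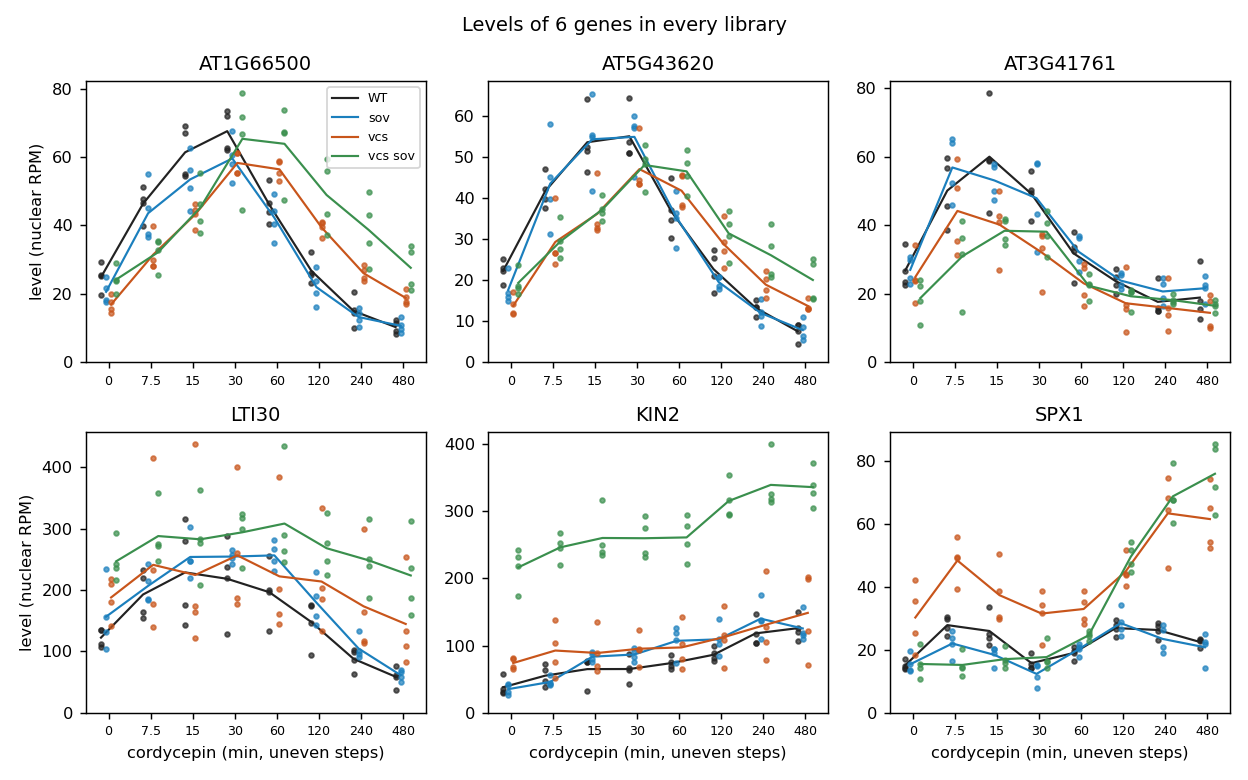
Levels (y axes, nuclear RPM, from 0) of 6 early-rising genes against time of cordycepin treatment (x axes, min, uneven steps), with each library as a point and the mean of 4 libraries as a line, coloured by genotype. AT1G66500 and AT5G43620 peak near 30 min and end lower in WT than in vcs sov, while KIN2 in WT goes from a mean of 37.9 at 0 min to 126 at 480 min.

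Across the whole list, the median change at 15 min was highest in sov, lower in vcs and lowest in vcs sov. In sov 19 of 150 genes were called higher and 0 lower, 12.7% of the list, beside 1.73% of the 19855 genes tested called higher and 2.02% lower. The log2 change was above 0 in all but 4 of the 150, with a median of 0.38 against -0.02 over all genes tested. In vcs 10 were called higher and 0 lower, beside 1.02% and 0.171% of all genes, with 127 above 0 and a median of 0.19. In vcs sov 5 were called higher and 0 lower, beside 0.398% and 0.0705%, with 107 above 0 and a median of 0.11. At an unadjusted p under 0.05 limma gave 68, 37 and 20 genes, all higher, and edgeR called 29, 15 and 8 higher and none lower, beside 1.97%, 1.18% and 0.64% of all genes called higher. With the replicate number as a block the sov count was 39, beside 2.18% of all genes, and with each library centred on its median gene it was 40, beside 2.54%. The block also added calls of AT2G32210 and VAMP723 in vcs, and of AT1G61370 and AT3G06690 in vcs sov. The 59, 21 and 16 genes whose 15 min libraries all lay above the 0 min libraries in sov, vcs and vcs sov are 39.3%, 14.0% and 10.7% of the list, beside 4.36%, 2.35% and 1.52% of the genes tested. The genes tested needed a mean of only 1 RPM in some group, and members 5 RPM in WT at 0 min. The shares of all genes thus include genes of lower level than the list allowed.

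Single libraries bear on these counts. Without replicate 1, which stood apart in vcs, 8 genes were called there, and the vcs median was 0.0926 with 92 of 150 above 0. The sov count was 10 without replicate 3 and 12 without replicate 4. The vcs sov count was 3 without replicate 2 and 2 without replicate 3 or without replicate 4, and its median was 0.0458 without replicate 1.

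The difference between genotypes was tested directly. For the rise in vcs sov minus that in sov, limma called 0 of 150 genes in either direction, beside 0.116% of all genes higher and 0.161% lower; the median difference was -0.27 on the log2 scale against 0.00 over all genes. At an unadjusted p under 0.05 there were 13 genes, all with a smaller rise in vcs sov, and edgeR called 0 with 17 at an unadjusted p under 0.05. For vcs sov minus vcs, limma called 0, beside 0.0% higher and 0.0101% lower, with a median of -0.09, 4 genes at an unadjusted p under 0.05, and 0 calls by edgeR with 5. Against sov the difference was below 0 in 131 of the 150 genes, where 51% of all genes lay above 0. Against vcs it was below 0 in 107, where 49.2% of all genes lay above 0. So no single gene passed the test for a smaller rise in vcs sov, though most members lay in that direction. Whether the list as a whole rose less was not tested, and these p-values leave out the pairing of libraries by replicate number.

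**Figure D3:**
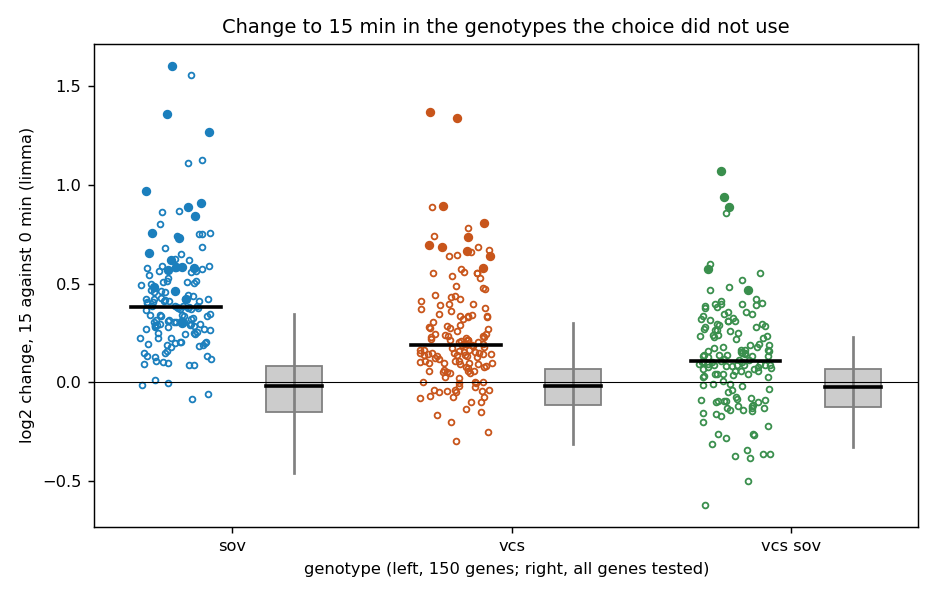
Log2 change from 0 to 15 min (y axis, limma) in sov, vcs and vcs sov: each circle is 1 of the 150 genes, filled where it was called higher, and the grey box and line give the interquartile range and the 5th to 95th percentile of all 19855 genes tested, with medians as black bars. The medians of the 150 genes are 0.38, 0.19 and 0.11, and the highest filled points are AT5G43620 in sov and vcs and AT3G41761 in vcs sov.

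By role, 57 of the 150 genes were placed in 8 groups after their values were known, and 93 in none. The cold and dehydration group holds 9 genes: LTI30, COR47 and ERD10, which are dehydrins that protect cell structures when water is lost, LTI78, KIN2, HVA22D, COR413-PM1, LEA14 and AT4G30650. In plants, genes of this kind are switched on by cold and drought, many through the CRT/DRE element CCGAC in their promoters, and by the hormone abscisic acid, which acts largely through the ABRE element. The promoters of LTI30 and LTI78 are shown because each holds 3 copies of it, marked in capitals (GTCGG is the same element on the other strand). CCGAC was added to the search after the members were known, and was found in 5 of these 9 promoters, in 16.7% of all member promoters and in 13.1% of the 12010. The ABRE core ACGTG was found in 4 of the 9, beside 23.1% of the 12010.
LTI30 (chr3:18940393-18940642, plus strand): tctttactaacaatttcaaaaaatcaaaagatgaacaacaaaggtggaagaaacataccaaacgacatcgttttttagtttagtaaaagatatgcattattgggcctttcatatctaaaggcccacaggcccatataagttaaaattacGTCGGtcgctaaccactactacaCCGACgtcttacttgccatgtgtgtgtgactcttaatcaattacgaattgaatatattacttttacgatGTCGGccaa
LTI78 (chr5:21240467-21240716, plus strand): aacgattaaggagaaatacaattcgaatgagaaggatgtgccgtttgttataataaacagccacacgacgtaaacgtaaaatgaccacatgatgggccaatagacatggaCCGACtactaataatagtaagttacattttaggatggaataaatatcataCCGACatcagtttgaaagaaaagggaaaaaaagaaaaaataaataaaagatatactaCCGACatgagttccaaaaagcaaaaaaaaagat

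In sov, 2 of the 9 cold and dehydration genes rose and 0 fell, with a median limma log2 change of 0.75. That is 22.2% of the group, beside 12.7% of the list called higher and 1.73% and 2.02% of all genes. The group was drawn from the list with values known, so nothing is read from its excess over all genes. At an unadjusted p under 0.05 limma had 7 of the 9 higher in sov, edgeR called 3 higher, and with the replicate block 5 were called higher. In vcs and vcs sov 0 of the 9 were called in either direction by limma or edgeR, 0 had an unadjusted p under 0.05, and the limma medians were 0.06 and 0.19. KIN2, a small stress-induced protein, had 25.6, 30.1, 41.0 and 43.4 nuclear RPM at 0 min in sov and 74.97, 90.3, 80.6 and 87.6 at 15 min. The sov groups of KIN2 did not overlap, and the log2 change was 1.27 ± 0.24 (SE, limma adjusted p = 0.000107). COR413-PM1, a membrane protein, rose by a log2 change of 0.89 ± 0.18 in sov (adjusted p = 0.000325). LTI78 had a larger change, 1.11 ± 0.36, from 24.2, 40.1, 71.0 and 54.1 nuclear RPM to 95.1, 95.9, 103 and 88.7, but did not pass (adjusted p = 0.0619, and 0.0197 with the replicate block, which passes). For LTI30 the sov change was 0.75 ± 0.29 (adjusted p = 0.17).

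The WT libraries that put these genes on the list were uneven. LTI30 had 112, 108, 134 and 135 nuclear RPM at 0 min in WT and 175, 143, 316 and 280 at 15 min. LTI78 overlapped, with 54.8, 87.3, 39.4 and 26.0 at 0 min and 40.4, 83.2, 159 and 89.7 at 15 min. KIN2 in WT had 32.2 in replicate 1 at 15 min, within its 0 min range of 29.1 to 57.0, and 74.9, 76.7 and 75.6 in the other libraries.

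Cold and dehydration genes started from a higher level in vcs sov than in sov. Against sov at 0 min 8 of the 9 were called higher and 0 lower, with a median log2 difference of 1.39, beside 41.3% of all genes higher and 26.2% lower. Against vcs at 0 min 2 of the 9 were called higher in vcs sov and 1 lower, with a median of 0.28, beside 26.0% and 27.1%. Means at 0 min were close in vcs and vcs sov for LTI78 (123 and 117 nuclear RPM), HVA22D (96.3 and 99.7) and COR413-PM1 (183.5 and 183.8). AT4G30650 was higher in vcs, with a mean of 46.2 ± 16 in vcs, 13.1 ± 3.2 in vcs sov and 15.4 ± 1.4 in sov (SD, n = 4). KIN2 had a mean of 35.0 ± 8.5 nuclear RPM (SD, n = 4) in the sov libraries at 0 min, 73.9 ± 8.1 in those of vcs and 216 ± 30 in those of vcs sov, with no overlap between sov and either of the others. The vcs sov to sov difference of KIN2 was 2.63 ± 0.24 on the log2 scale (limma adjusted p = 3.08e-17), and its vcs sov to vcs difference 1.54 ± 0.24 (adjusted p = 7.54e-08). Over the 150 genes, vcs sov had 58 higher and 47 lower against sov at 0 min, 38.7% and 31.3%, and with RPM as deposited the split was 83 and 27, beside 65.3% and 11.8% of all genes on that scale. Against vcs, 42 were higher and 46 lower, beside 26.0% and 27.1% of all genes, and with RPM as deposited 56 and 39, beside 39.6% and 16.7%.

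KIN2 stayed high. In WT its mean was 86.2 ± 9.9 nuclear RPM at 120 min and 126 ± 18 at 480 min (SD, n = 4), and the change between them was 0.54 ± 0.24 (limma adjusted p = 0.0495), which did not pass without replicate 1, 2 or 4, with RPM as deposited, with pseudocount 2 or with no filter. In the authors' deposited table KIN2 stood at 1.76 times its start in WT at 480 min and at 0.954 in vcs sov. LTI30 fell in the same interval, by 1.33 ± 0.29 in WT (adjusted p = 5.15e-05) and by 1.53 ± 0.29 in sov (adjusted p = 4.41e-06), and its changes of -0.61 ± 0.29 in vcs and -0.29 ± 0.29 in vcs sov did not pass (adjusted p = 0.0633 and 0.483). With the replicate block the change of LTI30 in vcs passed (adjusted p = 0.0314).

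Receptor-type kinases and immune receptors made up 13 of the list. They sit at the cell surface or in the cytoplasm and sense microbes, wall fragments or other signals. Of the 13, sov had 3 that rose, vcs 4 and vcs sov 1, and 0 fell in each, with median log2 changes of 0.42, 0.56 and 0.32. Over the 150 members, 12.7%, 6.67% and 3.33% were called higher, and over all genes tested 1.73%, 1.02% and 0.398%. This group too was drawn from the list with values known. At an unadjusted p under 0.05 limma had 8, 10 and 5 of the 13 higher, edgeR called 6, 6 and 2, and the replicate block gave 6, 4 and 2. CRK14, a cysteine-rich receptor-like kinase, rose in sov (0.65 ± 0.17, limma adjusted p = 0.00863) and in vcs (0.66 ± 0.17, adjusted p = 0.0166). The sov call of CRK14 was lost without replicate 1 or 3 and the vcs call without any 1 of the 4. WAKL2, a kinase of the wall-associated type, rose in vcs (0.74 ± 0.15, adjusted p = 0.00105), where its mean went from 15.2 ± 4.0 to 25.1 ± 1.7 nuclear RPM (SD, n = 4). EFR, which recognises the bacterial elongation factor EF-Tu, had 8.69, 11.4, 12.4 and 12.9 nuclear RPM at 0 min in sov and 15.1, 17.1, 21.7 and 14.9 at 15 min. The sov groups of EFR did not overlap, yet its change of 0.58 ± 0.20 did not pass over all genes (adjusted p = 0.108, and 0.0302 with the replicate block, which passes), nor did 0.55 ± 0.20 in vcs (adjusted p = 0.342).

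CNGC13, a cyclic nucleotide-gated ion channel, is in no group. It rose in sov (0.73 ± 0.14, limma adjusted p = 0.00014) and in vcs (0.81 ± 0.14, adjusted p = 4.17e-05), and its change in vcs sov was 0.39 ± 0.14 (adjusted p = 0.559). Its level went on upward from 30 to 120 min in 3 genotypes, WT at 0.40 ± 0.14 (adjusted p = 0.0161), vcs at 0.43 ± 0.14 (adjusted p = 0.0115) and vcs sov at 0.59 ± 0.14 (adjusted p = 0.0013). The WT call was lost without replicate 1 or 3 and the vcs call without replicate 3, and both with RPM as deposited. In vcs sov CNGC13 averaged 39.6 ± 3.0 nuclear RPM at 0 min and 82.6 ± 1.3 at 120 min (SD, n = 4). From 120 to 480 min CNGC13 fell in vcs by 1.48 ± 0.14 (adjusted p = 1.16e-15).

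Non-coding RNAs made up 6 of the list: AT3G41761, the U3 small nucleolar RNAs U3B and U3D, which guide early cuts in ribosomal RNA precursors, U4.2 of the spliceosome, AT3G61198 and AT1G27921. U3B and U3D share a stretch of 192 identical bases, shown here because reads from it cannot be assigned to one of them, so their counts are uncertain.
U3B (chr5:21888279-21888470, plus strand) and U3D (chr5:21945429-21945620, minus strand): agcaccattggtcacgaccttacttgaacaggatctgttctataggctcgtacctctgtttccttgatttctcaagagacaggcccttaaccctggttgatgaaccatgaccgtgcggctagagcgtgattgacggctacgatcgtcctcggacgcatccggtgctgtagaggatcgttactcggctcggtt
Their libraries scattered widely: U3B in WT had 70.0, 121, 81.0 and 111 nuclear RPM at 0 min and 106, 285, 79.2 and 144 at 15 min, overlapping. In sov the U3B change at 15 min was 0.41 ± 0.67 (SE, limma adjusted p = 0.92). From 120 to 480 min in sov, U3B and U3D rose, by 1.61 ± 0.67 (adjusted p = 0.0327) and 1.56 ± 0.68 (adjusted p = 0.0401), and neither passed without replicate 2 or 3, nor U3D with RPM as deposited. Of the 284 non-coding RNA genes tested, 9 were called higher and 7 lower in sov at 15 min, beside 1.73% and 2.02% of all genes. In vcs and in vcs sov 4 were higher and 3 lower, 1.41% and 1.06% beside 1.02% and 0.171% in vcs and 0.398% and 0.0705% in vcs sov.

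Nutrient genes made up 10 of the list, among them SPX1, a sensor of phosphate, NRT1.8, a nitrate transporter, ASN1, which makes asparagine, APR1 of sulfate assimilation and SEN1. At 15 min 0 of the 10 were called in sov, vcs or vcs sov by limma or edgeR, with 0, 1 and 1 higher at an unadjusted p under 0.05 and medians of 0.20, 0.09 and 0.06. SPX1 had 14.0, 17.0, 14.9 and 14.3 nuclear RPM at 0 min in WT and 33.7, 24.9, 23.7 and 21.6 at 15 min. In sov it had 13.4, 13.1, 15.4 and 19.6 at 0 min and 18.8, 20.3, 14.2 and 20.1 at 15 min, overlapping. The course of SPX1 in WT went up, down and up: from 7.5 to 30 min it fell by 0.81 ± 0.18 (limma adjusted p = 0.000735), and from 30 to 120 min it rose by 0.76 ± 0.18 (adjusted p = 0.000232). In vcs sov SPX1 rose from 17.7 ± 4.3 nuclear RPM at 30 min to 49.6 ± 4.3 at 120 min and 75.9 ± 11 at 480 min (SD, n = 4), and the later of these rises did not pass without replicate 4. The 30 to 120 min change of SPX1 was larger in vcs sov than in vcs by 0.95 ± 0.25 (adjusted p = 0.0327), the 1 member so called, beside 1.21% of all genes higher and 0.0201% lower. That call was lost without replicate 2, 3 or 4, with centring and with edgeR. NRT1.8 went the other way, from 30.4 ± 7.7 in WT at 15 min to 1.85 ± 0.55 at 480 min.

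The remaining groups were smaller. Redox repair and detoxification (8 genes, with the methionine sulfoxide reductases MSRB7 and MSRB9, the glutathione transferases GSTU6 and GSTU26, and ABCC7, an ABC transporter) had 1 gene called in sov and 0 in vcs and vcs sov. The gene was ABCC7, at 0.76 ± 0.16 (limma adjusted p = 0.000668). Cell wall genes (5, with EXLA2, an expansin-like protein, and XTH32, which remodels xyloglucan) and triterpene genes (4, with THAS1, CYP708A2 and CYP705A5 of the thalianol pathway, which are neighbours on chromosome 5) had 0 called in the 3 genotypes at 15 min. At an unadjusted p under 0.05, 3 cell wall genes and 1 triterpene gene were higher in sov and 0 in the others, and edgeR called 0. For the redox group, vcs had 2 higher and vcs sov 0 at an unadjusted p under 0.05, and edgeR called 0 in both. The triterpene medians were 0.39, 0.10 and -0.26 in sov, vcs and vcs sov. Among members in no group were PRN, a pirin, MPK12, a MAP kinase, the annexins ANNAT3 and ANNAT4, RAP2.6, a transcription factor of the ERF family, GI of the circadian clock, and BGLU18 with its neighbour TSA1, both known from ER bodies.

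**Figure D4:**
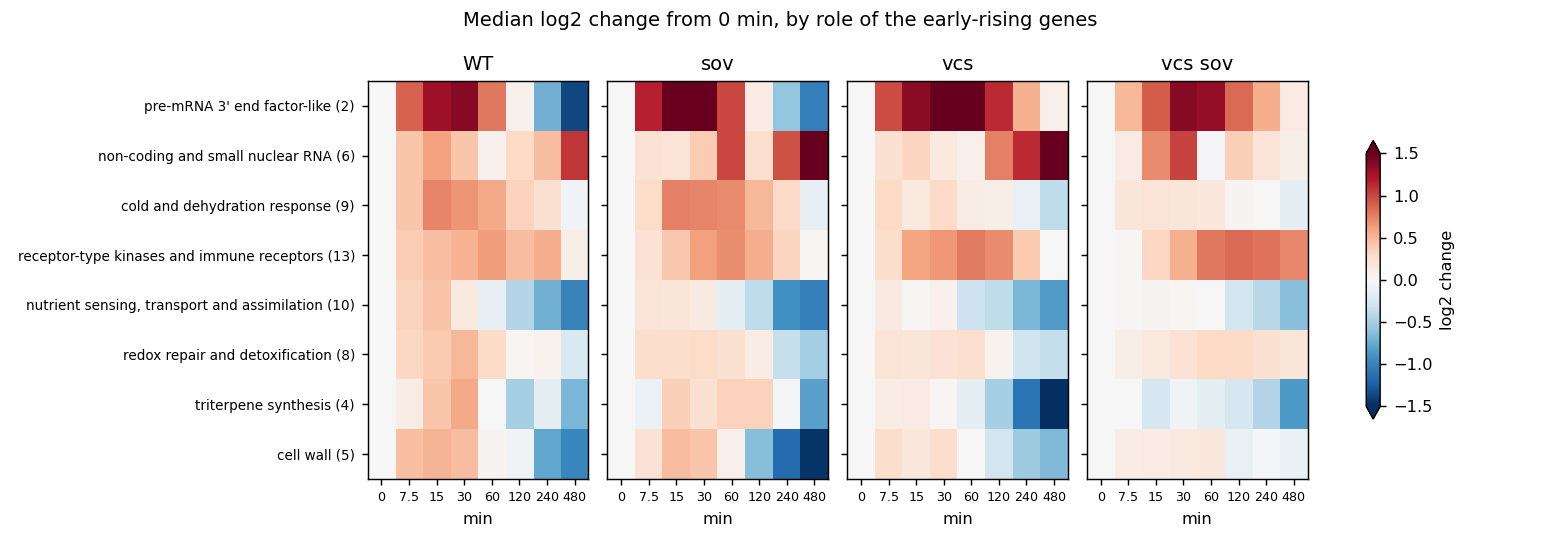
Median log2 change from 0 min (colour, blue lower and red higher, capped at 1.5 in either direction) of the 8 role groups (rows, number of genes in parentheses) at each time (columns, min) in the 4 genotypes. The change of a gene here is the log2 ratio of its group means, each plus 0.5 nuclear RPM, which is not the limma change (the mean of log2 values) given in the text. The receptor group is at 0.72 at 480 min in vcs sov and 0.09 in WT, and relative to the median gene, which shifted by -0.42 and -1.02, at 1.14 and 1.11. The cold and dehydration group at 15 min is at 0.76 in sov and 0.14 in vcs, a difference that was not tested, and WT at 0 and 15 min chose the genes.

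BGLU18, a beta-glucosidase that releases abscisic acid from a stored form, had the most negative of the 150 differences between the changes at 15 min in vcs sov and sov. Its sov libraries held 47.8, 58.7, 42.4 and 44.0 nuclear RPM at 0 min and 95.6, 114, 78.4 and 68.4 at 15 min, with no overlap. In vcs sov the values were 3.34, 15.8, 35.8 and 14.3, then 4.70, 13.3, 10.1 and 10.6, with overlap. The rise of BGLU18 in vcs sov minus that in sov was -1.37 ± 0.73 (SE) and did not pass (limma adjusted p = 0.9999). In vcs 1 library decided the mean: BGLU18 had 92.0 in replicate 1 at 15 min, beside 38.9, 9.44 and 17.5.

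AT3G60290, an oxygenase gene, had its level set apart at the start. Its RNA in sov was 5.44, 7.96, 11.0 and 9.89 nuclear RPM at 0 min and in vcs sov 0.635, 0.489, 0.521 and 0.498, a log2 difference of -3.09 ± 0.29 (SE, limma adjusted p = 3.51e-17). At 15 min the vcs sov libraries of AT3G60290 held 0.981, 1.84, 1.88 and 0.989, all above those at 0 min, a change of 0.86 ± 0.29 that did not pass over all genes (adjusted p = 0.382). From 30 to 120 min the change of AT3G60290 in vcs sov exceeded that in sov by 1.56 ± 0.41 (adjusted p = 0.00459), which did not pass without replicate 4. Its vcs sov levels at 0 and 15 min lay near the 0.5 nuclear RPM added before the log. That scale understates a fall of so low a gene, and the part of this limit in the difference was not tested. The same limit holds for the member AT5G24240 in sov and vcs sov. Its means at 0 min there were 0.846 and 1.11 nuclear RPM, beside 15.3 in WT and 13.7 in vcs.

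The wider gene lists are given by their counts at 15 min, to be read beside the shares of all genes called: 1.73% higher and 2.02% lower in sov, 1.02% and 0.171% in vcs, and 0.398% and 0.0705% in vcs sov. Of 45 abscisic acid genes tested, among them COR47, ERD10 and LTI78, 1 rose and 4 fell in sov, 2.22% and 8.89%, and 0 were called in the other 2 genotypes tested. Of 70 receptor-like kinase and MAP kinase genes, 1 rose and 3 fell in sov, 1.43% and 4.29%, 1 rose and 2 fell in vcs, and 0 rose and 1 fell in vcs sov. Among factors known to respond early to stress, in sov 0 rose and 12 fell of 51 ERF and DREB factors (with RAP2.6), and 0 rose and 9 fell of 50 WRKY factors. Among 50 early auxin genes 1 rose and 15 fell in sov, 2% and 30%. Heat shock genes had 1 higher and 3 lower of 30, and the 15 calmodulin-like and touch genes 0 higher and 2 lower, all in sov. In all, 7 of 18 lists held any of the 150 genes.

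The WT libraries that the choice did not use begin at 7.5 min. Between 7.5 and 30 min 6 members rose and 2 fell, beside 1.48% and 6.56% of all genes, with a median log2 change of 0.13 against -0.04. AT1G66500 rose by 0.54 ± 0.16 (SE, limma adjusted p = 0.0217) and SHM7, a hydroxymethyltransferase of folate metabolism, by 0.42 ± 0.13 (adjusted p = 0.0223), while SPX1 and NRT1.8 were the 2 that fell. Leaving out 1 replicate moved the rising count to 1 without replicate 2, 2 without replicate 3 and 1 without replicate 4, and the falling count to 1 without any 1 of the 4, while the replicate block gave 4 that fell. RPM as deposited gave 2 that rose and 2 that fell, beside 1.12% and 8.18% of all genes, and centring 15 and 1, beside 4.41% and 4.27%. The rises of AT1G66500 and SHM7 did not pass without replicate 2, 3 or 4, and the fall of NRT1.8 did not pass without any 1 of the 4. SHM7 also did not pass with RPM as deposited, nor NRT1.8 with centring. The SHM7 mean was 71.1 ± 7.4 nuclear RPM at 30 min, 92.4 ± 17 at 120 min and 117 ± 25 at 480 min (SD, n = 4) in WT.

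In WT and sov the highest mean of a member lay most often at 15 or 30 min. In WT 46 of 150 had their highest mean at 15 min, which the choice favours, 36 at 30 min and 19 at 480 min. In sov, which the choice did not use, 41 peaked at 15 min and 31 at 30 min, 27.3% and 20.7%, beside 12.1% and 9.40% of the eligible genes. In vcs 34 peaked at 7.5 min and 34 at 30 min, 22.7% at each, beside 19.1% and 10.9% of the eligible genes. The vcs means include replicate 1, which stood apart. At 7.5 min the 150 genes took 1.36% of its nuclear reads, beside 1.01%, 0.782% and 0.791% in replicates 2, 3 and 4. In vcs sov 28 peaked at 7.5 min and 23 at 30 min, 18.7% and 15.3%, beside 9.85% and 9.90%. A peak at 60 min or later was seen in 71 members in vcs sov, 47.3% beside 45.4% of the eligible genes, and one at 0 min in 13, 8.67% beside 27.6%. The median of the 150 in WT was 0.45 above the start at 30 min and 0.39 below it at 480 min, with 57 genes above their start. The choice used the WT start, so these WT values are a description. In sov, 48 members, 32%, were above their start at 480 min, beside 25.1% of the eligible genes. In vcs sov the median was 0.16 above at 30 min and 0.12 below at 480 min, beside 0.14 below for the eligible genes. There 63 members, 42%, were above their start at 480 min, near the 41.3% of the eligible genes. On the scale of the authors' deposited table fewer genes stood above their start at 480 min: 15 of the 150 in sov, beside 2.24% of the nuclear genes listed, and 17 in vcs sov, beside 3.3%.

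**Figure D5:**
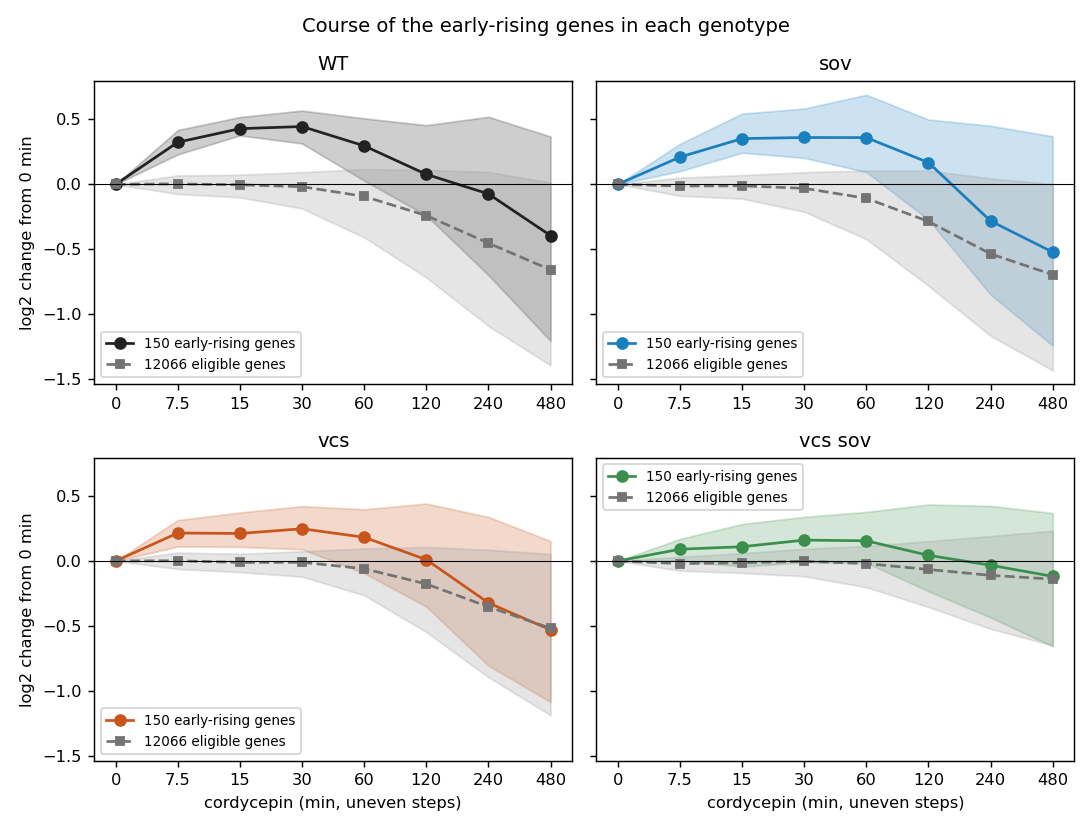
Log2 change from 0 min of the same genotype (y axes) against time of cordycepin treatment (x axes, min, uneven steps), as the median (line) and interquartile range (band) of the 150 early-rising genes and of the 12066 eligible genes (grey, dashed). In WT the median of the 150 is 0.43 at 15 min and -0.39 at 480 min, and in vcs sov it is 0.11 and -0.12. WT at 0 and 15 min chose the genes.

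The changes after 30 min were mostly falls, in the members as in all genes. From 30 to 120 min in WT 7 rose and 62 fell, 4.67% and 41.3% of the list, beside 6.31% and 40.8% of all genes. Their median was -0.38 and that of all genes -0.26, a difference of -0.12. In sov 7 rose and 56 fell, 4.67% and 37.3%, beside 6.95% and 44.7%. In vcs 5 rose and 44 fell, 3.33% and 29.3%, beside 4.99% and 39.7%. In vcs sov 8 rose and 19 fell, 5.33% and 12.7%, beside 3.93% and 18.8%. The share that fell was thus below that of all genes in sov, vcs and vcs sov, and near it in WT. Whether these shares differ from those of all genes was not tested. These splits depend on the scale, since the typical gene itself lost nuclear RPM: with each library centred on its median gene the counts were 27 and 22 in WT, beside 30.9% and 15.3% of all genes, and 40 and 18 in sov, beside 32.3% and 17.1%. In vcs centring gave 25 and 18, beside 26.5% and 14.9%, and in vcs sov 25 and 14, beside 15.6% and 9.44%. edgeR gave 17 and 34 in WT, beside 19% and 22.8%, 27 and 32 in sov, beside 21.9% and 26.0%, 16 and 21 in vcs, beside 18.9% and 21.9%, and 20 and 15 in vcs sov, beside 12.7% and 13.6%. The rising count was 3 without replicate 1 and 4 without replicate 3 or 4 in WT, 3 without replicate 3 in sov, 3 without replicate 2 or 3 in vcs, and 5 without replicate 3 or 4 in vcs sov.

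From 120 to 480 min 8 rose and 74 fell in WT, 5.33% and 49.3%, beside 6.72% and 53.6% of all genes. In sov 4 rose and 91 fell, 2.67% and 60.7%, beside 5.96% and 52.9%, and the median of -0.65 lay 0.26 below the -0.39 of all genes. In vcs 2 rose and 78 fell, 1.33% and 52%, beside 6.13% and 52.0%. In vcs sov 3 rose and 35 fell, 2% and 23.3%, beside 6.87% and 23.0%, and the replicate block gave 6 that rose. With centring the splits were 33 and 42 in WT, beside 30.2% and 18.3% of all genes, and 29 and 37 in sov, beside 29.8% and 15.9%. In vcs centring gave 26 and 35, beside 28.8% and 15.4%, and in vcs sov 11 and 23, beside 18.2% and 13.4%. edgeR gave 27 and 41 in WT, beside 22.7% and 20.5%, 25 and 42 in sov, beside 23.1% and 19.9%, 12 and 43 in vcs, beside 20.2% and 25%, and 8 and 23 in vcs sov, beside 16.2% and 17.0%. With centring a larger share of the list than of all genes was called lower in every genotype, and with edgeR in WT, sov and vcs. In the main fit the share was clearly larger in sov alone. Whether these shares differ was not tested. The rising count was 3 without replicate 1 and 4 without replicate 4 in WT, and 2 without replicate 2 and 1 without replicate 3 in sov. It was 1 without replicate 1 or 2 and 0 without replicate 3 in vcs, and 1 without replicate 4 in vcs sov.

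Some members fell under every setting run. From 30 to 120 min in WT these included EXLA2 (-2.11 ± 0.24, limma adjusted p = 3.05e-12), NRT1.8 (-1.99 ± 0.23, adjusted p = 2.24e-12), GCL1 (-1.87 ± 0.30, adjusted p = 1.03e-07), GSTU6 (-1.71 ± 0.29, adjusted p = 5.51e-07) and RAP2.6 (-1.68 ± 0.30, adjusted p = 1.93e-06). In all, 21 of the 69 genes called in WT in this interval were called under every setting. SUS6 fell late, from 120 to 480 min, by 1.62 ± 0.15 in WT (adjusted p = 1.91e-16), 1.66 ± 0.15 in vcs (adjusted p = 5.44e-17) and 1.80 ± 0.15 in vcs sov (adjusted p = 4.47e-18). PRN fell late in WT by 2.09 ± 0.49 (adjusted p = 0.000156) and in sov by 2.31 ± 0.49 (adjusted p = 3.56e-05).

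The 30 to 120 min change was also compared between genotypes. It was more positive in vcs sov against sov for 19 members and more negative for 0, 12.7% of the list beside 12.6% and 1.6% of all genes, so the share of members is near that of all genes. Centring gave 6 and 2, beside 3.7% and 5.91%, and edgeR 13 and 1, beside 6.96% and 3.09%. Without replicate 2 the count was 9 and without replicate 4 it was 4. EXLA2 had the highest such difference among members with a symbol. Its WT mean went from 25.1 ± 6.7 nuclear RPM at 30 min to 5.55 ± 2.2 at 120 min, and its vcs sov mean from 44.6 ± 5.0 to 29.3 ± 3.9 (SD, n = 4). The difference for EXLA2 was 1.43 ± 0.34 between vcs sov and sov (SE, limma adjusted p = 0.00147) and 1.09 ± 0.34 between vcs and WT (adjusted p = 0.0382). MPK12, at 0.91 ± 0.21 (adjusted p = 0.00133), NRT1.8, at 1.14 ± 0.32 (adjusted p = 0.00813), and OPT6, an oligopeptide transporter, at 1.09 ± 0.33 (adjusted p = 0.0166), were also called between vcs sov and sov. NRT1.8 was not called without replicate 2 or 4, nor OPT6 without replicate 2, 3 or 4, and neither with centring. Between vcs and WT 3 were called higher and 2 lower, beside 2.73% and 2.94%. RPM as deposited gave 1 and 2, beside 1.67% and 3.01%, and edgeR 3 and 1, beside 3.34% and 3.19%. The EXLA2 call between vcs and WT was also lost with RPM as deposited, centring, pseudocount 2 and no filter. Without replicate 2, 3 or 4 the higher count there was 0, EXLA2 included, and the lower count was 1 without replicate 1 or 4 and 0 without replicate 3.

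Some features that the choice did not use were compared as a description, with no test. The 144 protein-coding members had a median transcript length of 1698 bases and 4 exons, against 1878 bases and 6 exons for the 12010 eligible protein-coding genes, and 23 of them, 16.0%, had a single exon, against 10.0%. The median level of the members in WT at 0 min, a value the choice did use, was 18.3 nuclear RPM, against 31.9. Next to each other on a chromosome were 8 pairs of members, among them COR47 and ERD10, BGLU18 and TSA1, ANNAT3 and ANNAT4, and the thalianol genes CYP705A5, CYP708A2 and THAS1. COR47 and ERD10 shared no stretch of 50 bases, so their reads can be told apart at that length.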

How the data were processed

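Gene values were deposited by the authors as RPM, read numbers per gene brought to one fixed sum over all genes of a library, for 4 libraries in each of 32 groups of genotype and time. The labels record a correction of exchanged tubes in replicate 3 of vcs and vcs sov at 60 min. Per the submitters' processing notes, Bowtie2 2.2.3, TopHat2 2.0.12, HTSeq 0.6.1, R 3.1.0, FastQC and SAMtools were used with the TAIR10 build. The authors' deposited table of scaled group means gives each as a ratio to the 0 min mean of the same genotype; how it was scaled is not given in the sources used here. Every RPM value was a whole multiple of 1 read (tolerance 0.001 reads), so reads could be recovered.

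RPM was rescaled to the same total over the 28496 nuclear genes per library. The main test was limma 3.58.1 (trend, robust; R 4.3.3) on log2(nuclear RPM + 0.5), with 32 group means over all libraries, for 19855 genes with a group mean of at least 1 RPM, Benjamini-Hochberg adjusted p under 0.05 per comparison. A fold change on this scale understates changes of low genes. SE is the model's standard error. edgeR 4.0.16 on recovered reads was an alternative. Both were run on simulated libraries, drawn independently and with the same dispersion for every gene. Those lack the pairing described next, so that run says nothing about p-values under it. Libraries with the same replicate number correlated in their deviations from the group means: in 10 of 12 time comparisons within a genotype every pair exceeded 0.1, from 0 to 15 min in sov, vcs and vcs sov among them. The numbers were taken to pair the libraries there, as a hint from the data, since the labels do not say what a number shares. The main fit did not use this pairing, and no fit had a block within each genotype. The SE and p-values of time changes in the main fit thus leave the pairing out. A fit with the number as a block, shared by all genotypes, is given beside some of the results where it changed the call. It changed further counts of members that are not given, in each case by adding calls. The alternatives changed the scale, the pseudocount, the filter or the libraries. Symbols were found for 71 of the 150 members in the RefSeq table for TAIR10.1, and sequences come from its genome. No table of promoters was given, so promoters were read from the genome. Tables were handled in Python 3.11.15 with pandas 2.3.3.

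The members, lists and tests were chosen with earlier results of these data known. Named were the 20 members with a symbol and the highest ratio, up to 4 members per list, and the 3 members with a symbol and the largest called change in each direction of each comparison. All other genes named, those without a symbol among them, and the role groups were chosen after their values were seen. Intervals and p-values cover the spread between replicate pools of seedlings.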

Additional observations from a re-analysis of the deposited data

Results flagged for a closer look

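Of 120 groups of 4 libraries looked at (the share of reads of the members in all groups, and 11 genes at 0 and 15 min), 5 had a library far from the others, where chance gives about 1 in 20. AT5G43620 had 46.2 nuclear RPM in vcs at 15 min in replicate 1, with the others at 32.3 to 33.7. LTI30 had 438 in the same library, with the others at 122 to 174. U3B had 88.2 in vcs at 15 min in replicate 4, with the others at 40.3 to 45.4, and 248 in vcs sov at 0 min in replicate 4, with the others at 54.1 to 74.4. KIN2 had 32.2 in WT at 15 min in replicate 1, below the others at 74.9 to 76.7, in a group that the choice of members used.

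Effects that differed between genotypes by a direct test were seen for the change from 30 to 120 min. It differed in 5 members between vcs and WT (3 higher and 2 lower, beside 2.73% and 2.94% of all genes), in 19 between vcs sov and sov (all higher, 12.7% beside 12.6%), and in 1, SPX1, between vcs sov and vcs (beside 1.21%), shares near or below those of all genes. Of the 19, 4 were called in every setting, AT1G66500, AT1G79080, EXLA2 and MPK12, and of the 5 and the 1 none was.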

How the results depend on the processing

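The change to 15 min kept its direction in every setting tried for the counts in sov, vcs and vcs sov: none of the 150 genes was called lower, and the median stayed above 0. Centring gave 40, 15 and 8 called higher, edgeR 29, 15 and 8, pseudocount 2 gave 24, 11 and 3, and leaving out 1 replicate 10 to 18, 7 to 8 and 2 to 5. The differences between genotypes in that change had no call in any setting.

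From 7.5 to 30 min in WT, RPM as deposited gave 2 higher, centring 15 higher and 1 lower, edgeR 10 higher, and leaving out 1 replicate 1 to 6 higher and 1 to 1 lower. From 30 to 120 min, RPM as deposited gave 3 higher in WT, 3 in sov and 3 in vcs. Centring gave 27 higher and 22 lower in WT, 40 and 18 in sov, 25 and 18 in vcs, and 25 higher in vcs sov. edgeR gave 17 and 34 in WT, 27 and 32 in sov, 16 and 21 in vcs, and 20 higher in vcs sov. Leaving out 1 replicate gave 3 to 7 higher in WT, 3 to 7 in sov, 3 to 5 in vcs and 5 to 8 in vcs sov. From 120 to 480 min, RPM as deposited gave 1 higher in WT and 1 in vcs, and no filter 5 higher in WT. Centring gave 33 and 42 in WT, 29 and 37 in sov, 26 and 35 in vcs, and 11 and 23 in vcs sov, and edgeR 27 and 41, 25 and 42, 12 and 43, and 8 and 23. Leaving out 1 replicate gave 3 to 6 higher in WT, 1 to 6 in sov, 0 to 2 in vcs and 1 to 3 in vcs sov, and 24 to 38 lower in vcs sov. For the difference between vcs and WT from 30 to 120 min, RPM as deposited gave 1 higher, edgeR 1 lower, and leaving out 1 replicate 0 to 3 higher and 0 to 2 lower. For vcs sov minus sov, centring gave 6 higher and 2 lower, edgeR 1 lower, and leaving out 1 replicate 4 to 18 higher. For vcs sov minus vcs, RPM as deposited gave 3, centring 0, edgeR 0, and leaving out 1 replicate 0 to 1. For vcs sov against sov at 0 min, RPM as deposited gave 27 lower.

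From 120 to 480 min in WT and from 30 to 120 min in sov the lowest correlation of libraries with one replicate number was 0.0997 and 0.0887, and between genotypes no comparison had every pair above 0.1, so there the numbers were not taken to pair the libraries. With a replicate block the 15 min count in sov was 39, from 7.5 to 30 min in WT 4 were lower, from 120 to 480 min in vcs sov 6 were higher, and 3 members differed between vcs sov and vcs from 30 to 120 min. Further counts also gained calls with the block.

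Of 256 changes of named genes that passed the test, over 10 alternatives, 2203 of 2560 values kept direction and call, 351 kept direction and lost the call, and 6 reversed. With centring these were EFR (0.0217) and SPX1 (0.0325) from 120 to 480 min in sov, WAKL2 (0.13) in that interval in vcs, and SUS6 (0.0277) from 30 to 120 min in WT. With RPM as deposited they were GSTU26 (0.0829) and WAKL2 (0.102) between vcs sov and sov at 0 min. The cause was not tested. Depth limits low genes most: AT3G60290 in vcs sov rested on 36 reads over 4 libraries at 0 min.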
